A study of Mus musculus with 8 samples.

Results

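The genes described here encode the respiratory chain and ATP synthase, the 5 protein complexes of the inner mitochondrial membrane that carry out oxidative phosphorylation. Members are the protein-coding genes of the deposited table whose symbols begin with Nduf, Uqcr, Cox4 to Cox8 or Atp5, the 4 genes Sdha to Sdhd, Cyc1, and the protein-coding genes of the mitochondrial genome, with pseudogenes left out. This gave 110 of 56691 rows. Of these, 97 are nuclear and 13 mitochondrial. Complex I holds 44 members, complex II 4, complex III 10, complex IV 23 and complex V 21, and 8 further members (Ndufaf1 to Ndufaf8) are assembly factors of complex I. Ndufa4, named as a complex I gene, was placed in complex IV, where its protein is found.

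The libraries hold ribosome-bound messenger RNA of the VTA (ventral tegmental area), where midbrain dopamine neurons that project to striatum and cortex lie. The Ogt knockdown group (Ogt flox+/Y, replicates 2 to 5, n = 4) was compared with the control group (Ogt flox-/Y, replicates 3 to 6, n = 4). The Y in both genotypes marks male mice, and no age was found in the labels. In both groups the VTA was injected with 2 viruses. AAV-TH-Cre places Cre under the tyrosine hydroxylase promoter, and AAV-Flex-NBL10 makes an HA-tagged ribosomal protein wherever Cre is active. Markers of glial and other cell types are present too, and their levels are given with the first results. Ogt encodes O-GlcNAc transferase, which attaches the sugar O-GlcNAc to proteins. Whether the replicates of a group are different mice is not stated in any label. The p-values therefore reflect the scatter among these libraries alone, and that scatter may be technical.

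Complexes I and II feed electrons from NADH and succinate into ubiquinone, complexes III and IV pass them on through cytochrome c to oxygen, and complexes I, III and IV pump protons. Complex V, the ATP synthase, lets the protons return and makes ATP. Most subunits are encoded in the nucleus and imported, while core membrane subunits of complexes I, III, IV and V are encoded by mitochondrial DNA, so each of these complexes needs messages from both genomes. Dopamine neurons of the midbrain fire continuously and are known for their dependence on this pathway.

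Ogt itself had 74.4, 47.2, 41.6 and 36.0 CPM in knockdown replicates 2, 3, 4 and 5, against 159, 118, 118 and 108 CPM in control replicates 3, 4, 5 and 6 (CPM, counts-per-million of a library's reads, scaled by the trimmed mean of M values, TMM). Every knockdown library lay below every control library (log2 fold change -1.34, SE 0.23, edgeR quasi-likelihood adjusted p = 0.00243). Libraries held 49802305 to 147747191 counted reads, and 3 reads, used as the floor of detection, correspond to 0.0203 to 0.0602 CPM, for counting error only. Knockdown replicate 3 and control replicate 3 stand apart from the other libraries of their groups, so counts are given with and without them. Markers of the labelled cells were present, with the 8 dopamine neuron markers summing to 1695 to 2278 CPM in knockdown and 1786 to 2980 CPM in control libraries.

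Of the 107 members tested, 31 changed (28 lower and 3 higher), and 66 changed without knockdown replicate 3, against 28.5% and 29.1% of all genes tested in the same fits. Nuclear subunit messages were lower in the Ogt knockdown far more often than higher. Of the 87 nuclear subunit genes that could be tested, 26 fell, Cox7a1 rose, and 60 did not pass the test, with a median log2 fold change of -0.30. Over all 19912 genes tested, 15.1% fell and 13.4% rose, with a median of 0.00. Without knockdown replicate 3, 57 of the 87 fell and Cox7a1 again rose, with a median of -0.49, against 16.1% lower and 13% higher over all genes. Without control replicate 3 the count was 25 lower (16.8% of all genes lower), and without both libraries numbered 3 it was 68 (23.3% of all genes lower). The groups did not overlap, with knockdown lower, for 24 of the 87, against 18% of all genes. Fewer cells of a type, less RNA per cell and a changed share of RNA from other cells cannot be told apart in these libraries.

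The size of the count depended on single libraries. With each library left out in turn, leaving out knockdown replicate 2 gave 17 lower genes, knockdown replicate 4 gave 16, control replicate 5 gave 17 and control replicate 6 gave 14. Lower genes among all genes tested also became fewer, from 3009 with all libraries to 2354, 2434, 2319 and 2140 in the same order. Of the 31 members that changed in either direction, 17 passed the test whichever library was left out, and these are Ndufs1, Ndufs8, Ndufv1, Ndufv3, Sdha, Uqcrc1, Uqcrc2, Cox5a, Cox7a1, Cox7b, Atp5b, Atp5d, Atp5g1, Atp5h, Atp5s, Ndufaf7 and Ndufaf8. The same count was not made over all genes, so it is not to be read as particular to the members. With upper quartile scaling, which moved the median of all genes to 0.09, 16 of the nuclear subunit genes and 2432 of all genes fell.

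Markers of other cells moved with this comparison. Of 6 general neuronal markers, 5 fell, and their sum was 1852 to 2369 CPM in knockdown against 4110 to 5567 CPM in control libraries. Of 8 dopamine neuron markers, 7 fell and 1 rose. Of 8 astrocyte markers, 3 rose (7886 to 11979 against 664 to 3788 CPM), of 8 oligodendrocyte markers 4 rose (1748 to 4241 against 1080 to 1643 CPM), and of 9 microglia markers 8 rose (43.6 to 146 against 13.8 to 28.5 CPM). None of these lists held a marker at 0 in any library. Their part in the respiratory chain results was not tested.

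**Figure D1:**
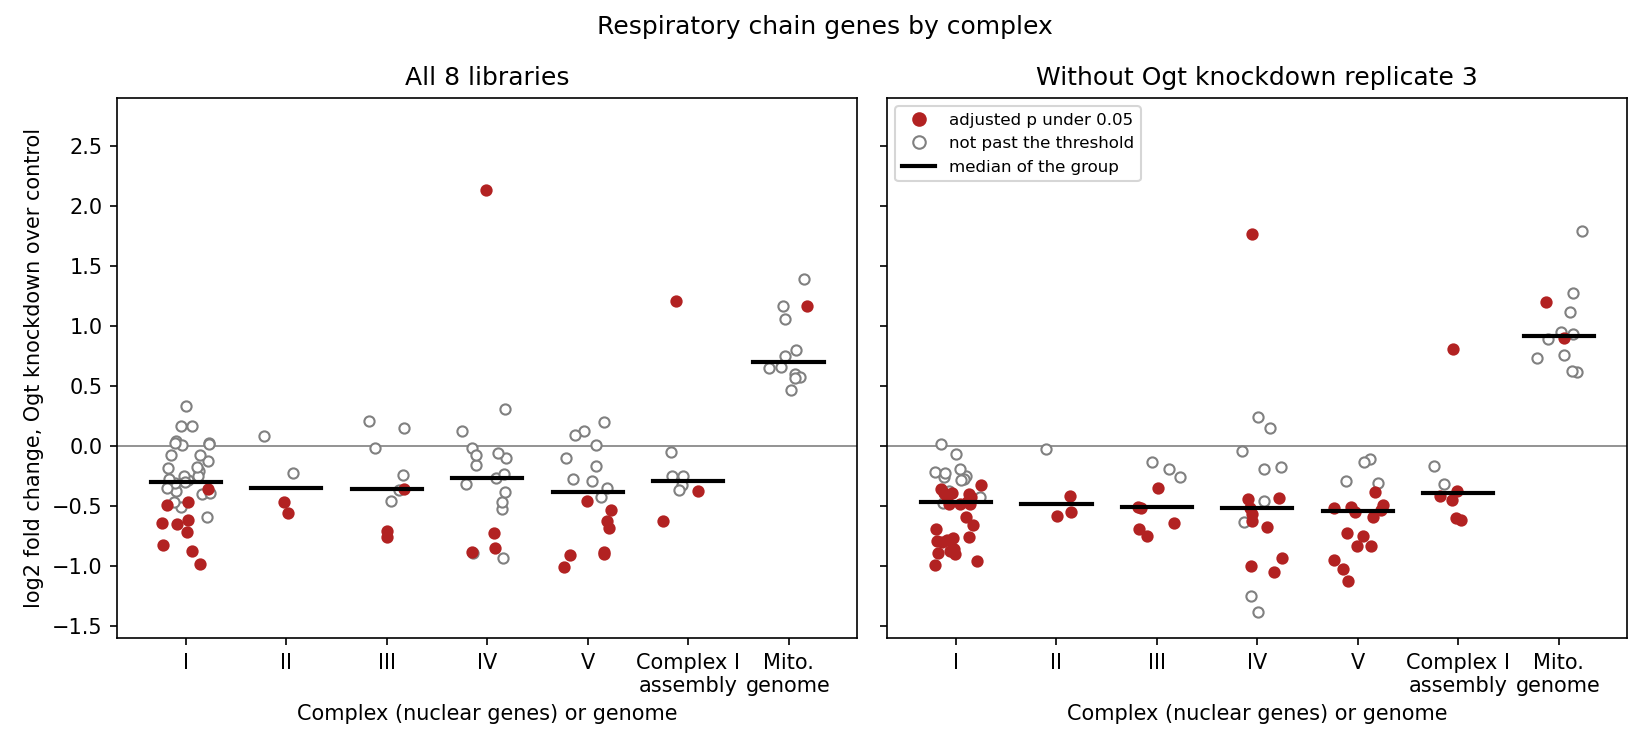
Log2 fold change of each tested member (Ogt knockdown over control, vertical axis) by complex for nuclear genes, for complex I assembly factors and for the mitochondrial genome, with all 8 libraries (left) and without knockdown replicate 3 (right). Filled points passed the test, open points did not, and bars are medians: nuclear complexes lie mostly below 0, with Cox7a1 the highest point at 2.13, and all 12 tested mitochondrial genes lie above 0.

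Complex I, the NADH dehydrogenase, had 10 of its 37 nuclear genes lower and none higher (27.0% lower, against 15.1% of all genes tested). Without knockdown replicate 3, 25 were lower (67.6%, against 16.1% of all genes). The N module, the tip of the matrix arm that oxidises NADH, has 10 genes, of which 5 fell, and 8 without knockdown replicate 3. The lowest p was that of Ndufs8, an iron-sulfur subunit of the Q module that passes electrons towards ubiquinone (ENSMUSG00000059734.8, chromosome 19, 3958863 to 3962774, GRCm39). Ndufs8 had 82.7, 94.2, 91.7 and 102 CPM in knockdown replicates 2 to 5, against 199.8, 170.0, 179.7 and 179.8 CPM in control replicates 3 to 6. The highest knockdown library lay well below the lowest control library, and knockdown replicate 3 did not stand apart (log2 fold change -0.98, SE 0.11, edgeR adjusted p = 0.000487).

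Ndufv1, the flavoprotein that binds NADH, had 138, 160.4, 159 and 161 CPM in knockdown against 330.2, 254, 274 and 278 CPM in control libraries (1.84-fold lower, edgeR adjusted p = 0.0011). Its neighbour in the N module, Ndufv3, had 126, 159, 123 and 152 CPM in knockdown against 292, 233, 237 and 229 CPM in control libraries (1.77-fold lower, edgeR adjusted p = 0.00235). The groups did not overlap for either gene. Ndufs1, the largest iron-sulfur subunit, fell 1.38-fold (adjusted p = 0.012), and Ndufb2, Ndufs5, Ndufa7, Ndufa6, Ndufab1 and Ndufa10 completed the 10.

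Other complex I genes showed how much knockdown replicate 3 weighed. Ndufa7, an accessory subunit, had 99.3, 170.4, 95.3 and 107 CPM in knockdown replicates 2 to 5, against 189, 175, 188 and 184 CPM in control replicates 3 to 6. Replicate 3 lay just under the control libraries and the other knockdown libraries far below them, and the edgeR adjusted p was 0.0267 with it and 0.000484 without it. Leaving out any of 5 other libraries ended the call. Ndufa3, an accessory subunit of the membrane arm, had 108, 211, 99.2 and 92.1 CPM in knockdown, against 172, 165, 169 and 169 CPM in control libraries. Here replicate 3 was the highest of all 8 libraries, and the gene passed the test only when it was left out (log2 fold change -0.40, edgeR adjusted p = 0.247, against -0.76 and 0.000922 without it). The only nuclear complex I gene above 0 without replicate 3 was Ndufa1, with 155, 321, 158 and 169.9 CPM in knockdown and 156, 151, 162 and 168 CPM in control libraries.

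Of the 8 complex I assembly factors, 2 fell and 1 rose, against 15.1% lower and 13.4% higher among all genes tested. Ndufaf7, a methyltransferase that modifies a complex I subunit, had 37.0, 35.3, 34.2 and 36.8 CPM in knockdown, against 62.3, 53.1, 51.3 and 53.4 CPM in control libraries (1.54-fold lower, edgeR adjusted p = 0.00343). Ndufaf8 moved the other way, with 53.0, 111, 46.4 and 48.2 CPM in knockdown against 21.5, 31.0, 32.9 and 26.8 CPM in control libraries. Every knockdown library was above every control library (2.31-fold, edgeR adjusted p = 0.0115), and the log2 fold change was 1.21 with knockdown replicate 3 and 0.81 without it. Ndufaf4 fell 1.30-fold (adjusted p = 0.0447) and lost the call when any of 6 libraries was left out. Without knockdown replicate 3, 5 of the 8 fell, against 16.1% of all genes.

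Complex II, succinate dehydrogenase, is encoded wholly in the nucleus and also belongs to the citric acid cycle. Its catalytic flavoprotein Sdha had 463, 531, 523 and 489 CPM in knockdown, against 694, 738, 753 and 759.9 CPM in control libraries. The 4 knockdown libraries lay close together and under all control libraries (1.47-fold lower, edgeR adjusted p = 0.0062). The iron-sulfur subunit Sdhb fell 1.38-fold (198 ± 26.1 against 273 ± 9.82 CPM, SD, n = 4 each, edgeR adjusted p = 0.0203). The membrane anchors Sdhc and Sdhd did not pass the test, with 228 ± 34.9 against 215 ± 43.0 CPM for Sdhc and 146 ± 38.1 against 171 ± 15.2 CPM for Sdhd (SD, n = 4 each). Sdhd passed without knockdown replicate 3 (log2 fold change -0.41, edgeR adjusted p = 0.0308) and Sdhc did not (-0.02, adjusted p = 0.941).

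In complex III, 3 of 9 nuclear genes fell and none rose (33.3% lower, against 15.1% of all genes tested). Without knockdown replicate 3, 6 fell (66.7%, against 16.1% of all genes). The core subunits Uqcrc1 and Uqcrc2, structural proteins on the matrix side, were the clearest. Uqcrc1 had 233, 305, 283 and 301 CPM in knockdown, against 528, 430.4, 438 and 436 CPM in control libraries (1.63-fold lower, edgeR adjusted p = 0.00437). Uqcrc2 had 137, 103, 161 and 157 CPM in knockdown, against 248, 228, 232 and 234 CPM in control libraries (1.69-fold lower, edgeR adjusted p = 0.00502). In Uqcrc2, knockdown replicate 3 was the lowest library instead of the highest, and the groups did not overlap for either gene. Part of the exons of Uqcrc2 is shared with an overlapping gene, so its count is uncertain.

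Cyc1, cytochrome c1, which hands electrons to cytochrome c, fell 1.28-fold (288 ± 21.5 against 369 ± 14.6 CPM, SD, n = 4 each, edgeR adjusted p = 0.0384). Its call was lost when any of 5 libraries was left out. The small hinge subunit Uqcrh had no call, with 506, 1140.5, 469 and 541 CPM in knockdown and 641, 537, 563 and 561 CPM in control libraries. Knockdown replicate 3 was far above all other libraries, and the log2 fold change was 0.21 with it (edgeR adjusted p = 0.603) and -0.19 without it (adjusted p = 0.216). Uqcrb, another small subunit, likewise gave 0.15 with it and -0.13 without it.

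Complex IV, cytochrome c oxidase, had 3 of 19 tested nuclear genes lower and 1 higher, and 9 lower and 1 higher without knockdown replicate 3. The share of lower genes was 15.8%, near the 15.1% of all genes tested, and without that library it was 47.4%, against 16.1% of all genes. All 3 were common isoforms, of which 11 were measured. Cox7b had 199.8, 275, 211 and 251 CPM in knockdown, against 504, 391, 393 and 399 CPM in control libraries (1.80-fold lower, edgeR adjusted p = 0.00291). Cox5a, a subunit on the matrix side, had 139, 261, 170.4 and 212 CPM in knockdown, against 369, 333, 364 and 372 CPM in control libraries (1.84-fold lower, edgeR adjusted p = 0.00678). Both were lower in every knockdown library. Ndufa4 fell 1.65-fold (adjusted p = 0.0346), with a call lost when any of 6 libraries was left out.

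The gene that rose was Cox7a1, the isoform of subunit VIIa known from heart and skeletal muscle. It had 38.5, 76.2, 26.9 and 40.6 CPM in knockdown, against 5.57, 9.62, 14.7 and 11.6 CPM in control libraries. The lowest knockdown library was above the highest control library, and knockdown replicate 3 was the highest (4.39-fold, log2 fold change 2.13, SE 0.36, edgeR adjusted p = 0.00266). The log2 fold change was 1.77 without knockdown replicate 3 (adjusted p = 0.00401). Cox7a2, the widely expressed isoform of the same subunit, had 213, 419, 222 and 241 CPM in knockdown, against 299, 319, 294 and 306 CPM in control libraries. It did not pass the test with all libraries (log2 fold change -0.15, edgeR adjusted p = 0.624) and fell without knockdown replicate 3 (-0.43, adjusted p = 0.00893). Cox7a2l, a relative that takes part in joining complexes III and IV, gave 0.13 and -0.04 (226 ± 50.4 against 206 ± 19.0 CPM with all libraries, SD, n = 4 each).

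Levels per length (RPKM, CPM per kilobase of exon) set the common and alternative isoforms of complex IV far apart for subunits VIa and VIII, and less so for subunit VIIa. Mean RPKM of Cox7a2, Cox7a2l and Cox7a1 was 290.3, 153 and 85.2 in knockdown, against 323, 139 and 19.4 in control libraries. Mean RPKM of Cox6a1 and Cox6a2 was 1257 and 3.41 in knockdown, against 1270.2 and 4.26 in control libraries. That of Cox8a and Cox8b was 1346 and 0.660 in knockdown, against 1419.6 and 1.23 in control libraries, and Cox8c, known from testis, had no read. Cox8a was the most abundant nuclear subunit message by this measure in both groups. Cox4i2, the isoform known from lung, had 1.24 to 1.85 CPM in knockdown and 4.83 CPM in control replicate 3 against 1.19 to 1.42 CPM in the other controls. Ndufa4l2 likewise had 8.50 CPM in control replicate 3 and at most 0.692 CPM in the other controls, against 0.599 to 2.42 CPM in knockdown. The summed endothelial markers were 22.0 to 33.2 CPM in knockdown, 731.8 CPM in control replicate 3 and at most 14.8 CPM in the other controls, and their part was not tested. Cox7b2 stayed under 0.6 CPM in every library, and Cox6b2 had 24.8 to 30.1 CPM in knockdown and 12.7 to 27.8 CPM in control libraries, with no call.

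Complex V had 8 of 18 tested nuclear genes lower and none higher (44.4% lower, against 15.1% of all genes tested). Without knockdown replicate 3, 14 were lower (77.8%, against 16.1% of all genes). The F1 head, which makes ATP, held 4 of these among its 5 genes with and without that library. Its catalytic beta subunit Atp5b had 1082, 988, 1290.2 and 1371 CPM in knockdown, against 2443, 2112, 2162 and 2142 CPM in control libraries. All knockdown libraries were under all control libraries (1.87-fold lower, edgeR adjusted p = 0.002). The alpha subunit Atp5a1 fell 1.44-fold (adjusted p = 0.0181), the gamma subunit Atp5c1 1.38-fold (adjusted p = 0.0335) and the delta subunit Atp5d 1.54-fold (adjusted p = 0.0167). The epsilon subunit Atp5e, the fifth gene of the head and a very short one, had 243, 404, 229 and 235 CPM in knockdown and 168, 288, 295 and 267 CPM in control libraries, with no call.

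Of the peripheral stalk, which holds the head in place, Atp5h had 201, 358, 208 and 234 CPM in knockdown, against 655, 406, 413 and 392 CPM in control libraries (1.87-fold lower, edgeR adjusted p = 0.0171). Its call held whichever library was left out, with adjusted p of 0.00385 to 0.0497. The other 3 tested stalk genes fell only without knockdown replicate 3, and a second row that carries the Atp5o symbol had no read. Atp5s, the coupling factor B of the synthase, was low and fell 1.84-fold (15.1 ± 2.01 against 27.9 ± 4.74 CPM, SD, n = 4 each, edgeR adjusted p = 0.00415). None of the 5 small membrane subunits passed the test with all libraries, and 3 fell without knockdown replicate 3. In the same fits, 15.1% and 16.1% of all genes fell. Whether the parts of complex V differ from each other was not tested.

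The c ring, the rotor through which protons pass, is built from a single mature protein that 3 genes encode, Atp5g1, Atp5g2 and Atp5g3. These genes differ in their leader sequences and promoters. Whether their responses differ from each other was not tested. Their promoter windows (250 bases before to 50 after the start, RefSeq, GRCm38.p6) are shown 5′ to 3′ to set the control regions of genes for the same protein side by side, with capitals marking matches to NRF1 (GCGCA, any base, GCGC) or ERR (TCAAGGTCA) letters on either strand.
Atp5g1 promoter, chr11:96075582-96075881, minus strand: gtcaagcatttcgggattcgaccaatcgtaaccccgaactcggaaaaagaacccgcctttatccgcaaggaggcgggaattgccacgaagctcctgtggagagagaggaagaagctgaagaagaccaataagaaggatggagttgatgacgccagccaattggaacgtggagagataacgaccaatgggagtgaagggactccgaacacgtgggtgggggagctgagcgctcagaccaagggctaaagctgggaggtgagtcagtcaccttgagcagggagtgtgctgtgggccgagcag
Atp5g2 promoter, chr15:102670998-102671297, minus strand: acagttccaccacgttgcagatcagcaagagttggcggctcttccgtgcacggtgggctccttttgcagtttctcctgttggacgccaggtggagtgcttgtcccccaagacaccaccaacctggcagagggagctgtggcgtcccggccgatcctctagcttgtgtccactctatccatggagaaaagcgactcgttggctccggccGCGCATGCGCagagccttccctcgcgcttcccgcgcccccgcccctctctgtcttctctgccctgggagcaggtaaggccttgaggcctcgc
Atp5g3 promoter, chr2:73911277-73911576, minus strand: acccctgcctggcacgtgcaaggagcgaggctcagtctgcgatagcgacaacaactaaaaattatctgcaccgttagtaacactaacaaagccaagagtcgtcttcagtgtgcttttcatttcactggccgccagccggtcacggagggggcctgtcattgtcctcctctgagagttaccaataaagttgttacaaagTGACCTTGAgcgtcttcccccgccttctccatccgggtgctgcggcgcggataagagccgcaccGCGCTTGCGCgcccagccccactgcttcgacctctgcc

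Atp5g1 had 208, 248, 232 and 268 CPM in knockdown, against 513, 458, 470.2 and 478 CPM in control libraries. The groups were far apart and knockdown replicate 3 lay within its group (2.01-fold lower, edgeR adjusted p = 0.000565). Atp5g3 had 276, 585, 329 and 355 CPM in knockdown, against 642, 592, 613 and 629 CPM in control libraries (log2 fold change -0.68, SE 0.21, edgeR adjusted p = 0.0377). Replicate 3 of the knockdown nearly reached the lowest control library, and the call was lost when any of 6 libraries was left out. Atp5g2 had 96.8, 144, 102 and 109.9 CPM in knockdown and 123, 116, 126 and 144 CPM in control libraries, with overlapping groups (log2 fold change -0.17, SE 0.15, edgeR adjusted p = 0.432). Atp5g1 and Atp5g2 have near-identical copies elsewhere in the genome, so their counts are uncertain.

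**Figure D2:**
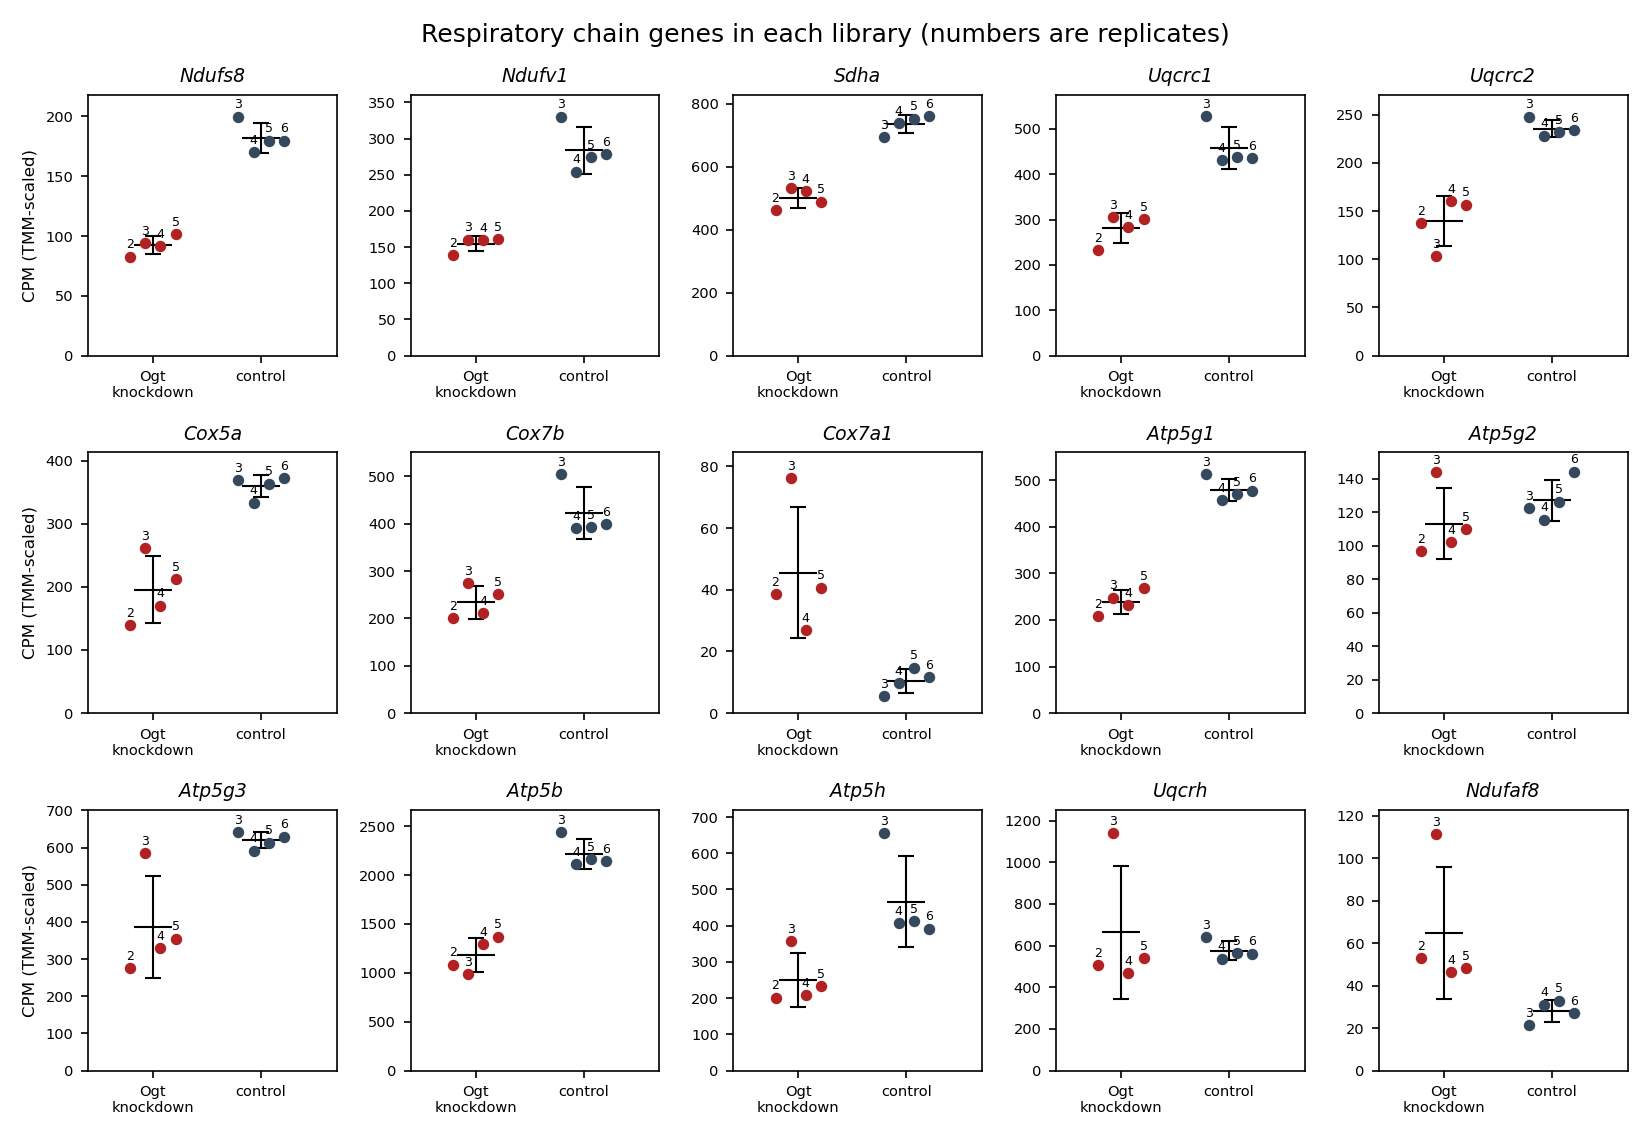
TMM-scaled CPM of 15 members in each library, Ogt knockdown left of control in each panel, with the replicate number at each point and the mean and SD (n = 4) in black. Ndufs8, Ndufv1, Sdha and Atp5g1 have 4 knockdown libraries close together below the controls, whereas in Uqcrh and Ndufaf8 knockdown replicate 3 lies far above the others, at 1140.5 and 111 CPM.

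A search for 5 known motifs in the promoter windows covered 71 nuclear subunit genes that matched the RefSeq table, of 78 matched among the 97 nuclear members. Letters of NRF1, a factor known to act on respiratory genes, were found on either strand in 17 of 71 windows (23.9%), against 7.17% of the 17492 protein-coding genes with a window. Letters of the ETS factor GABPA (CCGGAAG) were also in 17 (23.9%, against 12.9%), those of YY1 (AAGATGGCG) in 7 (9.86%, against 2.14%), those of ERR in 2, Atp5g3 and Sdhd (2.82%, against 0.377%), and a TATA box (TATAAA) in 8 (11.3%, against 14.8%). No motif contains another. Of the 47 genes that fell without knockdown replicate 3, 12 held NRF1 letters (25.5%), and of the other 24, 5 did (20.8%). YY1 letters were in 2 of the 47 (4.26%) and 5 of the 24 (20.8%). GABPA letters were in 11 (23.4%) and 6 (25%), ERR letters in 2 and 0, and a TATA box in 4 (8.51%) and 4 (16.7%). Of the 22 genes lower with all libraries, 7 held NRF1 letters, 3 GABPA, 1 ERR, 0 YY1 and 1 a TATA box. Whether any of these shares differ was not tested. A match is a description of these letters only.

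Knockdown replicate 3 was the highest of the 4 knockdown libraries for 70 of 82 nuclear subunit genes with a control mean above 10 CPM, at 0.683 to 2.55 times the mean of the other 3 (median 1.67). The excess was related to the length of the coding sequence. In genes of up to 300 coding nucleotides, such as Ndufa1, Uqcrh and Atp5k, the median excess of replicate 3 on the log2 scale was 0.94 (22 nuclear members), and it was 0.76 in the 25 members of up to 450, 0.70 in the 17 of up to 600 and 0.49 in the 9 of up to 900. In the 12 members of 900 to 1500 nucleotides it was 0.12, and in the 4 longer members, Atp5b, Atp5a1, Sdha and Ndufs1, it was 0.02. Across these 89 members, Spearman's rho between coding length and the excess was -0.62, and across 10070 other genes above the same level it was -0.49. These are correlations across genes of the same libraries and genes are not independent replicates. Other genes had a median excess of 0.56 in the shortest bin and -0.25 in the longest.

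Other knockdown libraries also varied with coding length, each set against the remaining ones without replicate 3. Spearman's rho over the members was -0.43 for replicate 2, 0.46 for replicate 4 and 0.10 for replicate 5. Over the other genes it was 0.27, of the opposite sign, for replicate 2, 0.17 for replicate 4 and -0.41 for replicate 5. With all libraries, the median log2 fold change of knockdown over control was -0.05 in the shortest members and -0.54 in the longest 4, with a rho of -0.42 over the 89 members and -0.04 over the other genes, again as a description across genes. Without replicate 3, that median lay between -0.39 and -0.56 in every length bin of the members (rho -0.21), and that of other genes between -0.15 and 0.00. The part of coding length, or of anything that varies with it, in the difference between the groups was not tested.

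**Figure D3:**
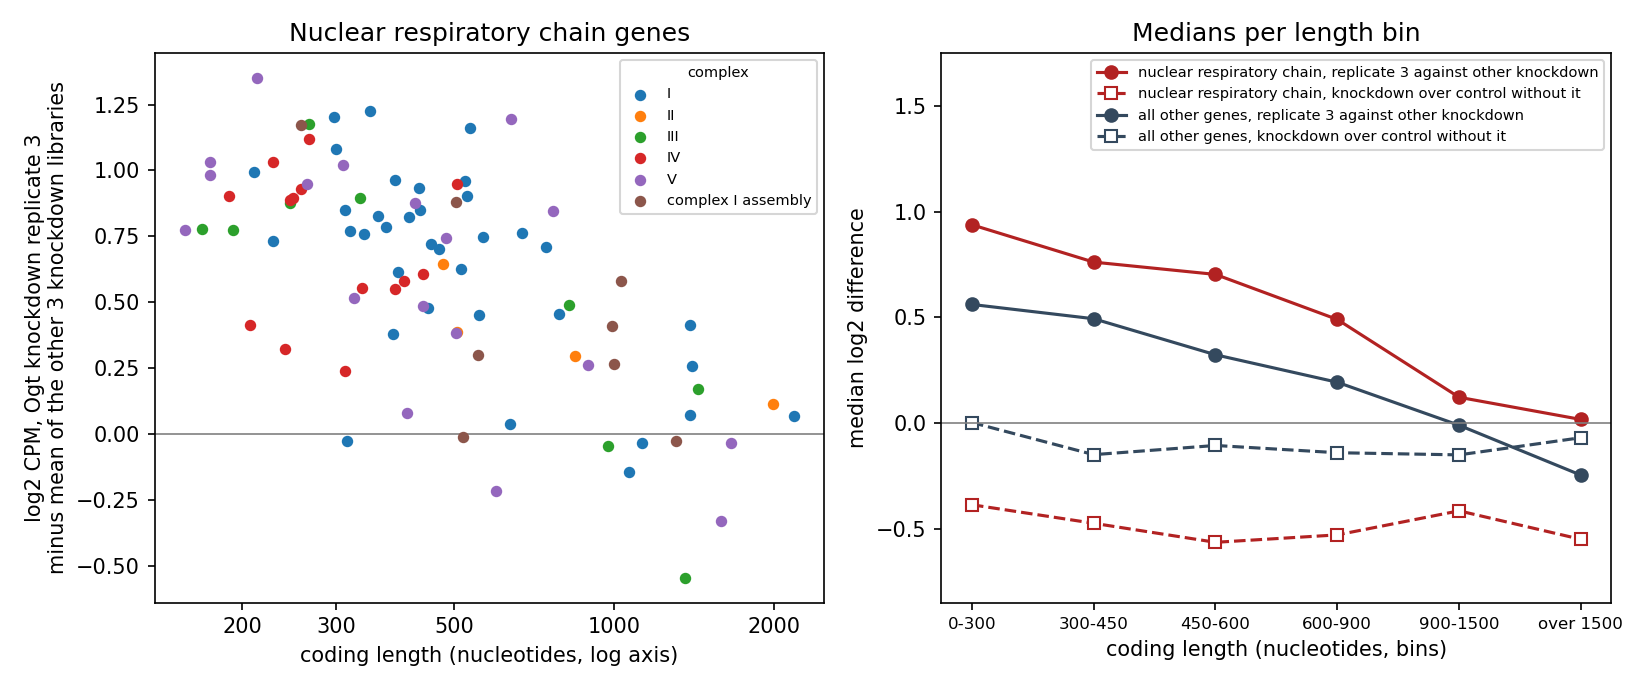
Left, log2 CPM of knockdown replicate 3 minus the mean of the other 3 knockdown libraries (vertical axis) against coding length (log axis) for 89 nuclear members, coloured by complex. Right, medians per bin of coding length: the excess of replicate 3 (filled) falls from 0.94 to 0.02 in the members and from 0.56 to -0.25 in other genes, while the log2 fold change of knockdown over control without that library (open) stays between -0.39 and -0.56 in the members.

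Genes that share exon bases with another gene, or have a near-identical copy (99% identity over at least 100 bases), over more than 15% of their length can be miscounted. Among the 97 nuclear members, 7 share exons with an overlapping gene (both Atp5o rows, Ndufa13, Ndufaf2, Ndufb6, Ndufb9 and Uqcrc2) and 11 have copies (Atp5g1, Atp5g2, Atp5l, Atp5md, Cox5b, Cox7a2l, Cox7c, Ndufa12, Ndufab1, Ndufb4 and Ndufs5). Without them, 22 of 71 tested nuclear subunit genes fell and 1 rose, with a median log2 fold change of -0.32. Over all genes tested, 15.1% fell and 13.4% rose. Without knockdown replicate 3, 46 of the 71 fell, against 16.1% of all genes.

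Messages of the mitochondrial genome had fold changes of the opposite sign. The HA tag is on a ribosomal protein, and these messages are not to be read as bound to tagged ribosomes. How they came to be in the libraries, such as by carry-over, was not tested. All 12 tested genes of the mitochondrial genome had a positive log2 fold change, with a median of 0.71. Only mt-Nd3 passed the test (13.4% of all genes higher), and none was lower at an adjusted or unadjusted p under 0.05. At an unadjusted p under 0.05, 3 were higher. Without control replicate 3, 8 passed as higher (18.1% of all genes higher), and without both libraries numbered 3, 9 did (23.5% of all genes higher). Without knockdown replicate 3 they numbered 2, mt-Co1 and mt-Nd3 (13% of all genes higher). The median was 0.30 without knockdown replicate 2, and then none passed and mt-Nd6 was at -0.03. DESeq2 called 3 of them higher and limma-voom with quality weights 11, with 3484 and 5251 of all genes higher in the same runs. The edgeR fit with all libraries called 2659 of all genes higher.

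Only 7 of the 13 mitochondrial genes were counted in earnest, with 1531 to 209501 reads a library, and the other 6 had 0 to 384. In the 6, 5 have a copy of 98.99% to 99.87% of their length, at 99% identity or more, between positions 24651488 and 24654646 of chromosome 1 (GRCm39), and a read that aligned to more than 1 place was left uncounted. The sixth, mt-Atp8, had 0 to 5 reads and was not tested. The first 60 bases of mt-Nd3 and mt-Co2 and of their chromosome 1 copies (GENCODE M21 transcripts, 5′ to 3′) show how little tells them apart, with capitals at the only difference over the 345 bases shared by mt-Nd3 and its copy (T3C, counted from 1 at the 5′ end of mt-Nd3). Over the 681 bases shared by mt-Co2 and its copy there was none.
mt-Nd3: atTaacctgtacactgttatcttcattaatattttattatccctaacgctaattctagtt
Gm28438: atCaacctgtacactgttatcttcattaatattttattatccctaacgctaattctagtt
mt-Co2: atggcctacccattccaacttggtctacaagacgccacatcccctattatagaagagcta
Gm28661: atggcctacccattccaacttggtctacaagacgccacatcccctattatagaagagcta

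The copy of mt-Nd3 had at most 35 reads in a library, and mt-Nd3 itself 143 to 384 reads in knockdown and 70 to 214 in control libraries. Its levels were 3.77, 2.59, 2.81 and 2.17 CPM in knockdown, against 0.947, 1.46, 1.72 and 0.933 CPM in control libraries, and the groups did not overlap (2.24-fold, edgeR adjusted p = 0.0207). Leaving out knockdown replicate 2, knockdown replicate 4 or control replicate 6 ended the call (highest edgeR adjusted p 0.0685). Nearly all of its sequence is shared with the copy. The remaining genes of this kind had low values and no call: mt-Co3 1.09 ± 0.390 against 0.484 ± 0.0709 CPM, mt-Co2 1.35 ± 0.471 against 0.887 ± 0.691 CPM, mt-Atp6 0.966 ± 0.604 against 0.466 ± 0.170 CPM and mt-Nd4l 0.204 ± 0.203 against 0.0775 ± 0.0429 CPM (SD, n = 4 each, knockdown first).

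Of the counted genes, mt-Co1, the catalytic subunit of complex IV, was the most abundant. It had 2058, 525, 1135 and 1129.8 CPM in knockdown replicates 2 to 5, against 947, 738, 721 and 679.5 CPM in control replicates 3 to 6. Knockdown replicate 3 was the lowest of all 8 libraries here and the other 3 were above every control (log2 fold change 0.65, edgeR adjusted p = 0.172, and 0.90 and 0.0196 without replicate 3). A near-identical copy covers 31.3% of mt-Co1 and 63.6% of mt-Nd4, where ambiguous reads were left uncounted.

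The complex I core subunit mt-Nd1 had 897, 441, 503 and 379 CPM in knockdown, against 503, 239.7, 259 and 274 CPM in control libraries (log2 fold change 0.80, edgeR adjusted p = 0.0831). Control replicate 3 was the only control library within the range of the knockdown libraries. For mt-Cytb, the core of complex III, the values were 902, 297, 471 and 341 CPM in knockdown, against 663, 224, 209 and 255 CPM in control libraries (log2 fold change 0.57, edgeR adjusted p = 0.386). In both genes knockdown replicate 2 was the highest library, and control replicate 3 was the highest control. The other complex I genes had 320.3 ± 200.4 against 191 ± 114 CPM for mt-Nd2, 349 ± 174 against 235 ± 159 CPM for mt-Nd4, 166 ± 113 against 105 ± 29.6 CPM for mt-Nd5 and 69.9 ± 40.8 against 50.6 ± 33.4 CPM for mt-Nd6 (SD, n = 4 each, knockdown first), with no call. Genes mt-Nd5 and mt-Nd6 overlap on opposite strands, and counting without strand cannot tell reads of the overlap apart.

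Summed over the 7 counted genes, knockdown replicates 2 to 5 had 5517, 1777, 2972 and 2434 CPM, against 3196, 1593, 1580.3 and 1670.2 CPM in control replicates 3 to 6. The same libraries had nuclear subunit sums of 18803, 30915, 19839 and 22034 CPM in knockdown, against 31131, 28017, 29242 and 28352 CPM in control. Within the knockdown the order ran opposite ways, with replicate 2 the highest in mitochondrial and the lowest in nuclear messages, and replicate 3 the reverse. Control replicate 3 was the highest control library in both. Only 0.152% to 0.596% of reads fell on mitochondrial protein genes, and 2.03% to 3.08% on nuclear subunits.

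**Figure D4:**
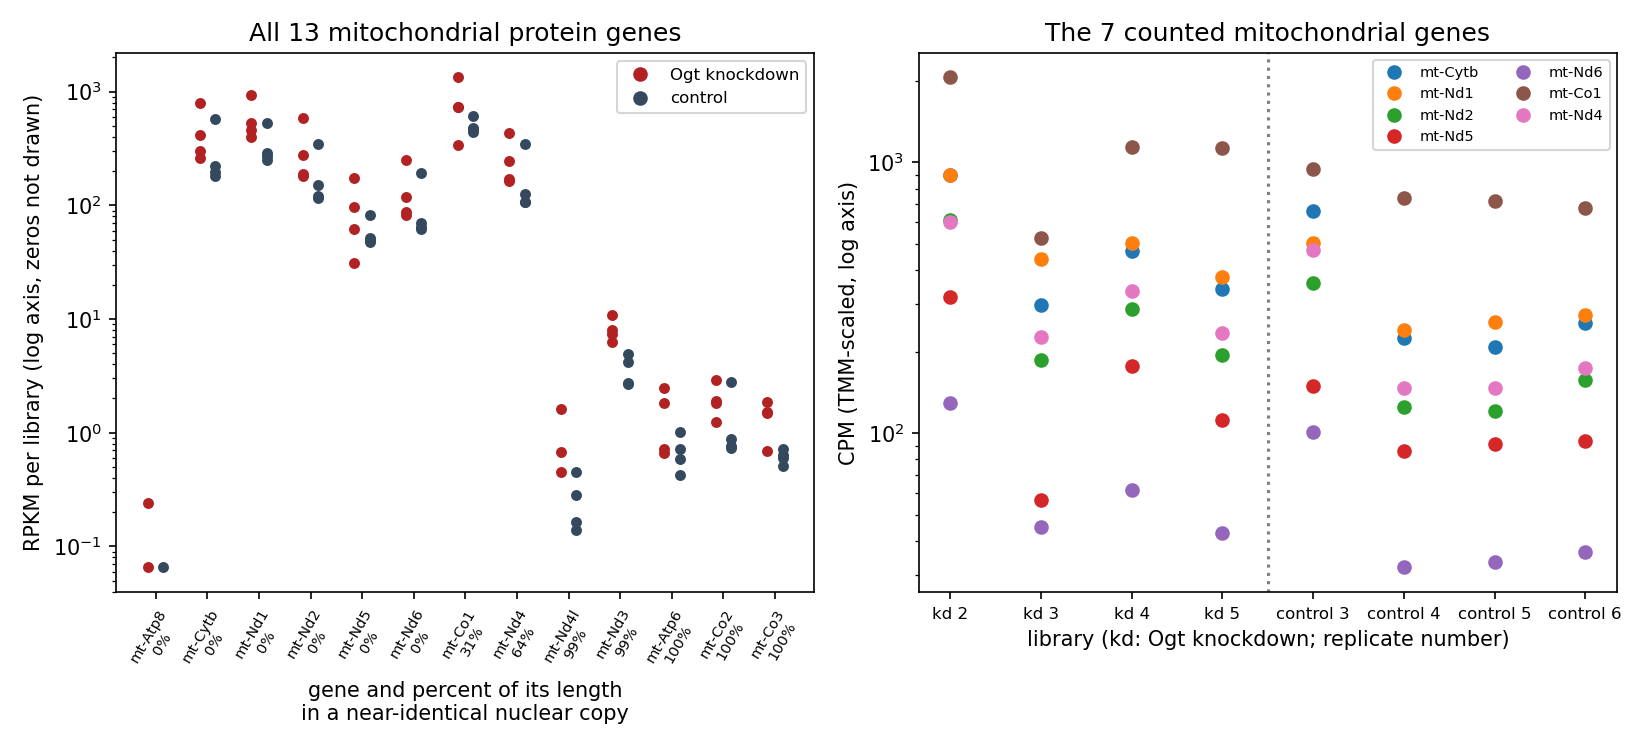
Left, RPKM per library (log axis, zeros not drawn) of the 13 mitochondrial protein genes, Ogt knockdown left of control, ordered by the percent of the gene's length in a near-identical nuclear copy, where the 5 genes with a copy of nearly their whole length, and mt-Atp8, drawn at 0% because no copy of it was analysed here, lie far below the rest. Right, TMM-scaled CPM (log axis) of the 7 counted genes in each library, knockdown replicates 2 to 5 left of control replicates 3 to 6, where knockdown replicate 2 and control replicate 3 are the high libraries of their groups.

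Other genes of the pathway, taken from 6 lists, are to be read against the shares of all genes tested, of which 15.1% fell and 13.4% rose (16.1% and 13% without knockdown replicate 3). Of 13 citric acid cycle genes, 7 fell and none passed the test as higher (median log2 fold change -0.44), with 9 lower without knockdown replicate 3. Without control replicate 3, 9 fell and 1 rose, against 16.8% and 18.1% of all genes. The clearest was Fh1, fumarase, which follows complex II in the cycle, with 62.2, 65.1, 71.0 and 72.4 CPM in knockdown, against 202, 137, 143 and 147 CPM in control libraries (2.32-fold lower, edgeR adjusted p = 0.000527). Idh3a, of isocitrate dehydrogenase, fell 1.78-fold (adjusted p = 0.00222) and Ogdh, of the 2-oxoglutarate dehydrogenase complex, fell 1.62-fold (adjusted p = 0.00228). Suclg2 moved the other way without a call (2.01-fold higher, edgeR adjusted p = 0.141). It had 61.4, 42.1, 60.6 and 53.2 CPM in knockdown, against 5.76, 26.8, 41.4 and 34.0 CPM in control libraries.

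Of 17 tested genes for electron carriers and exchange, 5 fell and 3 rose. Cycs, cytochrome c, which joins complexes III and IV, had 158, 185, 188 and 214 CPM in knockdown, against 293, 317, 315 and 309 CPM in control libraries, with no overlap (1.66-fold lower, edgeR adjusted p = 0.00244). The ADP/ATP carrier Slc25a4 fell 1.45-fold (adjusted p = 0.0122) and Slc25a27, a neuronal carrier of the uncoupling family, fell 1.74-fold (adjusted p = 0.0062). Those that rose were Ucp2, a carrier of the uncoupling family (2.02-fold, adjusted p = 0.00463), Sqor, sulfide quinone reductase (1.44-fold, adjusted p = 0.0428), and Aox1, an aldehyde oxidase that is not part of the chain (2.04-fold, adjusted p = 0.0453). The calls of Sqor and Aox1 were each lost when any of 6 or more libraries was left out.

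Of 40 tested assembly factors without an Nduf symbol, 10 fell and 2 rose, against 15.1% lower and 13.4% higher among all genes, and 15 and 3 without knockdown replicate 3, against 16.1% and 13%. Atpaf1, a chaperone of the F1 head, fell 2.43-fold (36.7 ± 10.5 against 89.1 ± 8.32 CPM, SD, n = 4 each, edgeR adjusted p = 0.00176). Coa3, a complex IV factor, fell 2.01-fold (adjusted p = 0.00141) and Tmem126b, a complex I factor, fell 1.83-fold (adjusted p = 0.00102). The 2 that rose were the complex IV factors Cox19 (1.48-fold, adjusted p = 0.00402) and Coa5 (1.56-fold, adjusted p = 0.01).

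Of 77 tested mitochondrial ribosomal protein genes, 15 fell, a share near the 15.1% of all genes, and 4 rose, against 13.4%. Without knockdown replicate 3, 26 fell and 4 rose, against 16.1% and 13% of all genes. With all libraries, Mrps5 was 1.77-fold lower (edgeR adjusted p = 0.000917) and Mrps6 3.39-fold higher (84.7 ± 52.5 against 24.9 ± 2.73 CPM, SD, n = 4 each, edgeR adjusted p = 0.00537). Of 26 genes for mitochondrial DNA upkeep and transcription, 6 fell and 1 rose, against 15.1% and 13.4% of all genes. Mterf2 fell 2.63-fold (adjusted p = 0.00115), Mterf3 1.73-fold (adjusted p = 0.00245) and Grsf1, an RNA-binding protein of mitochondrial RNA granules, 1.65-fold (adjusted p = 0.00215), while the nuclease Mgme1 rose 1.37-fold (adjusted p = 0.0188), a call lost when any of 4 libraries was left out.

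Of 17 regulators of mitochondrial biogenesis, 3 fell and 2 rose, shares near the 15.1% lower and 13.4% higher among all genes. The 3 that fell are the oestrogen-related receptors, nuclear receptors that bind the ERR letters given above. Esrra had 104, 145, 126 and 131 CPM in knockdown, against 184, 207, 200.5 and 183 CPM in control libraries (1.53-fold lower, edgeR adjusted p = 0.00683). Esrrb fell 2.54-fold (5.40 ± 1.31 against 13.7 ± 0.548 CPM, adjusted p = 0.00124) and Esrrg fell 2.30-fold (34.3 ± 10.9 against 78.8 ± 22.1 CPM, SD, n = 4 each for both genes, edgeR adjusted p = 0.0104). The groups did not overlap for any of the 3. Gabpb1 and Gabpa, the subunits of GA-binding protein, rose 1.62-fold (adjusted p = 0.00536) and 1.39-fold (adjusted p = 0.0221), and the call of Gabpa was lost when any of 6 libraries was left out. The other 12, among them the coactivator gene Ppargc1a, did not pass the test.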

How the data were processed

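Ribosome-bound RNA of 8 VTA libraries was measured by sequencing. The authors deposited 1 table of raw counts per gene, made with featureCounts 2.0.3 over GENCODE vM30 (GRCm39), counting single mates without strand and leaving out reads with several alignments, per the file headers. FastQC, Trimmomatic, STAR and mm10 are named in the submitters' processing notes; which build was used for alignment is not settled by these sources, and coordinates given as GRCm39 are those of the table. Symbols came from GENCODE M21 (52073 of 56691 IDs matched, and the other 4618 held 0.327% to 1.809% of reads) and promoter windows from RefSeq.

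Groups were compared with edgeR 4.0.16 (R 4.3.3, TMM scaling, its expression filter, robust quasi-likelihood test, Benjamini-Hochberg adjustment over all genes, threshold 0.05). Alternatives used DESeq2 1.42.0, limma 3.58.1 (voom), other scalings and filters, and each library left out. Of the 110 members 107 were tested. Cox8c and the second Atp5o row had no read, and mt-Atp8 had too few. Near-identical copies were found with BLAST 2.17.0. The members, lists and named genes were chosen with earlier results of these data known. Named were all mitochondrial genes, alternative isoforms, complex II, Cyc1, and genes among the 3 smallest p-values per complex and direction. Some of the latter, such as Ndufaf3 and Atp5mpl, are left without a fold change. Ndufa7, Ndufa3, Ndufa1, Atp5e and the genes of the short and long length classes were named after their values were seen.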

Additional observations from a re-analysis of the deposited data

Results flagged for a closer look

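Within a group of 4 libraries, a library was singled out where its gap to the nearest other, over the range of the group, passed Dixon's critical value for 4 samples, which chance does in about 1 in 20 groups. Among the 107 tested members this picked knockdown replicate 3 as the highest knockdown library for 26, control replicate 3 as the highest control library for 18 and as the lowest for 2. The same picks were not counted over all genes, so these counts are not to be read as particular to the members. Values are TMM-scaled CPM of the library that stood apart.

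In knockdown replicate 3, the high genes of complex I were Ndufa1 at 321.4, Ndufa13 at 654.3, Ndufa2 at 478.9, Ndufa3 at 211.5, Ndufa5 at 491.5, Ndufa7 at 170.4, Ndufb11 at 319.6, Ndufb4 at 130.9, Ndufb9 at 84.56 and Ndufc1 at 230.6 CPM, with the assembly factor Ndufaf8 at 111.2 CPM. In complex III they were Uqcr10 at 475.1, Uqcrb at 275.4 and Uqcrh at 1141 CPM. In complex IV they were Cox4i1 at 1200 (1200.3 to more digits), Cox6b1 at 787.5, Cox6c at 1023, Cox7a2 at 419.4 and Cox7c at 599 CPM. In complex V they were Atp5e at 403.8, Atp5j at 319.5, Atp5j2 at 639, Atp5k at 390.1, Atp5md at 462, Atp5mpl at 424.1 and Atp5o at 106.8 CPM. The ribosomal protein gene Mrps6 was at 162.8 CPM in the same library. These are mostly genes of short coding sequence, the class in which this library exceeded the other knockdown libraries most.

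In control replicate 3, the high nuclear genes were Atp5b at 2443, Atp5h at 654.8, Atp5o at 78.76, Cox4i1 at 956.6, Cox4i2 at 4.829, Cox7b at 504, Ndufa4 at 753.7, Ndufa4l2 at 8.495, Ndufs7 at 315.5, Ndufv3 at 292.4 and Uqcrc1 at 527.5 CPM, and Fh1 of the citric acid cycle at 201.9 CPM. The mitochondrial genes mt-Co2 at 1.921, mt-Cytb at 662.8, mt-Nd1 at 503.4, mt-Nd2 at 359.7, mt-Nd4 at 473.2, mt-Nd5 at 149.1 and mt-Nd6 at 100.7 CPM were high in it too, as was the sum of the 7 counted mitochondrial genes at 3196 CPM. Summed markers of microglia (28.52 CPM), endothelial cells (731.8 CPM), pericytes (545.2 CPM) and choroid plexus (179.9 CPM) were high in the same library. Ndufb1 at 125.3, Sdhd at 148.2 and the assembly factor Coa5 at 54.44 CPM were low in it.

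Outside the libraries numbered 3, Ndufv1 was low in knockdown replicate 2 at 138.5 CPM, the endothelial marker sum was low in knockdown replicate 5 at 22.02 CPM, and Ndufa10 was high in control replicate 5 at 286.3 CPM.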

How the results depend on the processing

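No member that passed the test turned its direction under any alternative run. Of the 31, DESeq2, the stricter filter and limma-voom kept all, scaling by DESeq2's size factors kept 29, no filter 28 and upper quartile scaling 20. Adding the replicate number to the model as a block kept 6. Upper quartile scaling left 16 nuclear subunits lower, 2 mitochondrial genes higher, and 6 changed genes in complex I and 1 in complex II. Over all genes it left 3176 higher and 2432 lower. DESeq2 called 3 mitochondrial genes higher, and 3484 genes higher in all. With limma-voom and quality weights, 59 nuclear subunits were lower, 11 mitochondrial genes higher, and 5251 genes higher and 4967 lower in all, with 32 changed genes in complex I, 7 in III, 14 in IV and 15 in V. Without both libraries numbered 3, 68 nuclear subunits were lower and 9 mitochondrial genes higher (median 1.26), with 4805 genes higher and 4760 lower in all and 35 changed in complex I, 8 in III, 14 in IV and 18 in V.

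With each library left out in turn, lower nuclear subunits numbered 14 to 57 and the higher one was 1 throughout (median -0.49 to -0.26). Mitochondrial genes higher numbered 0 to 8 and lower 0 (median 0.30 to 1.14), and over all genes 1684 to 3723 were higher and 2140 to 3475 lower. Changed genes numbered 4 to 26 in complex I, 1 to 3 in II, 2 to 6 in III, 3 to 11 in IV and 5 to 14 in V. The cause of these shifts was not tested.

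Replicates 3, 4 and 5 occur in both groups. Deviations of same-numbered libraries from their group means correlated at 0.104, 0.099 and 0.042. With so few libraries these values cannot settle whether same-numbered samples share more than a number, and the labels state no pairing. With the replicate block, 6 nuclear subunits were lower and 0 higher, 0 mitochondrial genes higher, and 480 genes higher and 778 lower in all, with 3 changed genes in complex I, 0 in II, 0 in III, 1 in IV and 2 in V. Low counts, at most 384 reads a library, limit the precision of 6 mitochondrial genes, 5 of which have near-identical nuclear copies.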
